A study of Arabidopsis thaliana with 12 samples.

Results

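Transcripts of cell-death regulators were followed in leaves of 4 *Arabidopsis thaliana* genotypes. The regulators were named by locus code: the copines *BON1*, *BON2* and *BON3*, their partners *BAP1* and *BAP2*, the ankyrin-repeat protein gene *ACD6* and the zinc-finger gene *LSD1*. Of these 7 loci, 6 were found among the 18884 genes of the deposited table, and all 6 were among the 18877 genes tested. *BON1* was not analysed here.

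The 4 genotypes were TPR1-GFP sid2-1, TPR1-GFP eds1-2, TPR1-GFP and the wild type Col-0, with 3 libraries of polyadenylated RNA each and 12 in all. TPR1-GFP plants carry a GFP-tagged TPR1, a transcriptional corepressor of the TOPLESS family, under the *TPR1* promoter in Col-0. The other two transgenic lines hold the same construct together with sid2-1, a mutation in the salicylic acid synthesis gene *ICS1*, or eds1-2, a mutation in the immune regulator gene *EDS1*. No plant was treated, and leaves were taken after 5 weeks on soil under 10 h of light a day, 22 °C and 60% relative humidity. Nothing in the labels says whether libraries of 1 genotype came from separate plants or batches, so each p-value speaks for the spread among these 12 libraries and no more. The labels name 1 line for each genotype, and reads of native *TPR1* and of the transgene were pooled in 1 count.

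Copines are calcium-dependent phospholipid-binding proteins at the plasma membrane. In Arabidopsis they restrain immune receptors of the NLR class, and *BAP1* and *BAP2* encode small C2-domain proteins that bind BON1 and inhibit programmed cell death. ACD6 is a membrane protein that works in a feedback loop with salicylic acid. Its gain-of-function allele gives spontaneous lesions and small plants. LSD1 is a zinc-finger protein that holds back the spread of cell death under superoxide, and it acts in part by binding the transcription factor bZIP10 and the metacaspase MC1.

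Libraries held 19628974 to 32018583 counts. Levels below are in CPM, which are counts brought to a common library size, after TMM scaling for differences in composition between libraries. *TPR1* averaged 1101, 1122 and 1635 CPM in TPR1-GFP sid2-1, TPR1-GFP eds1-2 and TPR1-GFP leaves, against 72.0 CPM in Col-0. It was called lower in the eds1-2 line than in TPR1-GFP. The level of *TPR1* thus differed between the transgenic lines, and the part of this in the results below was not tested. *EDS1A* stood at 13.5 to 15.99 CPM in the eds1-2 line, against 130 to 173 CPM in TPR1-GFP. *ICS1* averaged 142 CPM in the sid2-1 line, 26.4 in the eds1-2 line and 281 in TPR1-GFP, against 28.9 CPM in Col-0. Of the tissue markers, all 3 for mesophyll were present, and their summed level was 24216 to 26089 CPM in the sid2-1 line, 33612 to 41282 in the eds1-2 line and 19898 to 23931 in TPR1-GFP, against 39680 to 48515 in Col-0. Both phloem markers were called higher in the eds1-2 line than in TPR1-GFP and in Col-0, with summed levels of 232 to 251 CPM in the sid2-1 line, 355 to 402 in the eds1-2 line and 222 to 243 in TPR1-GFP, against 208 to 292 in Col-0. Summed trichome and epidermis markers were at 59.2 to 75.6 CPM in the sid2-1 line, 80.4 to 120.1 in the eds1-2 line and 60.2 to 79.2 in TPR1-GFP, against 97.4 to 155 in Col-0, and both were called lower in TPR1-GFP than in Col-0. Of the 2 guard cell markers 1 was called lower there (summed 24.6 to 26.7 CPM in TPR1-GFP, 40.7 to 57.6 CPM in Col-0), as was the xylem marker (1.91 to 2.98 CPM in TPR1-GFP, 4.12 to 6.10 CPM in Col-0). Both root markers, the 1 marker of senescent leaf and 1 of the 2 flower markers were outside the table. The other flower marker, *AG*, stayed at 2.26 CPM or below and was highest in the eds1-2 line (2.002 to 2.26 CPM, against at most 0.95 CPM in Col-0). In bulk leaf RNA, fewer cells of a type and less RNA per cell cannot be told apart. The part of the marker differences in the results below was not tested.

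The 250 bases before the annotated start of *BON3*, *BAP2* and *ACD6* are shown here as examples of genes with different patterns over the genotypes. Not every regulator with the pattern of *BON3* and *BAP2* is shown. They were read from the RefSeq TAIR10.1 assembly, each 5′ to 3′ on the strand of its gene. The windows lie at chr1:2841719-2841968 (plus strand), chr2:18847836-18848085 (minus strand) and chr4:8293915-8294164 (plus strand). Capitals mark matches to TTGAC, the core of the W-box bound by WRKY factors, or to CGCGT, the core of the element bound by CAMTA factors, on either strand.
BON3: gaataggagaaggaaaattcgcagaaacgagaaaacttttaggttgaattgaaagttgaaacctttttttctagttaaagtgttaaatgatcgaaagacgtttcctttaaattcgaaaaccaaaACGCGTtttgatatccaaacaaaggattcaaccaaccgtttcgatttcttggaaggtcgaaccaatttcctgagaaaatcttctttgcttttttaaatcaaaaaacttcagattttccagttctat
BAP2: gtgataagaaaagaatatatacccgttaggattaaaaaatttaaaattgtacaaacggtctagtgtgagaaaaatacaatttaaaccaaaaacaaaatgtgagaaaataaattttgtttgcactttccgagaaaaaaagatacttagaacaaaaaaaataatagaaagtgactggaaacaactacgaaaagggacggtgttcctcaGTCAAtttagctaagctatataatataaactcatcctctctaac
ACD6: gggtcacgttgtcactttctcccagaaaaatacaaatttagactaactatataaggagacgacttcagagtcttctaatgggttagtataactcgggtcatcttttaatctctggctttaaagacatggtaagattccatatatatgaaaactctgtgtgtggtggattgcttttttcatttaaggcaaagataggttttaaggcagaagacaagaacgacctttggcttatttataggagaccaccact

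The *BON3* window held ACGCGT, in which a CGCGT match on each strand overlaps the other, at positions -126 to -121 from the start. The *BAP2* window held 1 TTGAC on the opposite strand at -44 to -40. No match to either core, or to TGACG, the core of the element bound by TGA factors, stood in the *ACD6* window. The *BON2* window held none either, while the *LSD1* window held ACGCGT at -12 to -7. TTGACG would count for both TTGAC and TGACG. Over 27443 such windows of protein-coding genes, 44.9% held TTGAC, 18.6% TGACG and 6.87% CGCGT. A match is a description of the letters and not a binding site.

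All 6 measured regulators rose in TPR1-GFP leaves relative to Col-0, and their libraries did not overlap between these genotypes. *BON3*, *BAP1* and *BAP2* rose many-fold, *ACD6* rose 2.05-fold, *BON2* 1.25-fold and *LSD1* 1.24-fold. The count has to be read against a broad response. In the same test 53.9% of all genes were called, 27.5% higher and 26.4% lower, and 61.1% of genes had libraries without overlap. No gene of the deposited table sums to less than 101 counts, and *BON3* and *BAP2* reach that sum only through TPR1-GFP and the sid2-1 line, so that their presence in the table already holds a difference between genotypes. Of the called genes 51% were higher under TMM, but 72.9% with library totals alone, a scaling that put the median of all genes at 0.26 (log2). With upper-quartile scaling 44.2% of the called genes were higher, and the median of all genes was -0.07. Calls are genes with an adjusted p under 0.05 in edgeR's quasi-likelihood test, with Benjamini-Hochberg adjustment over all genes tested.

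**Figure D1:**
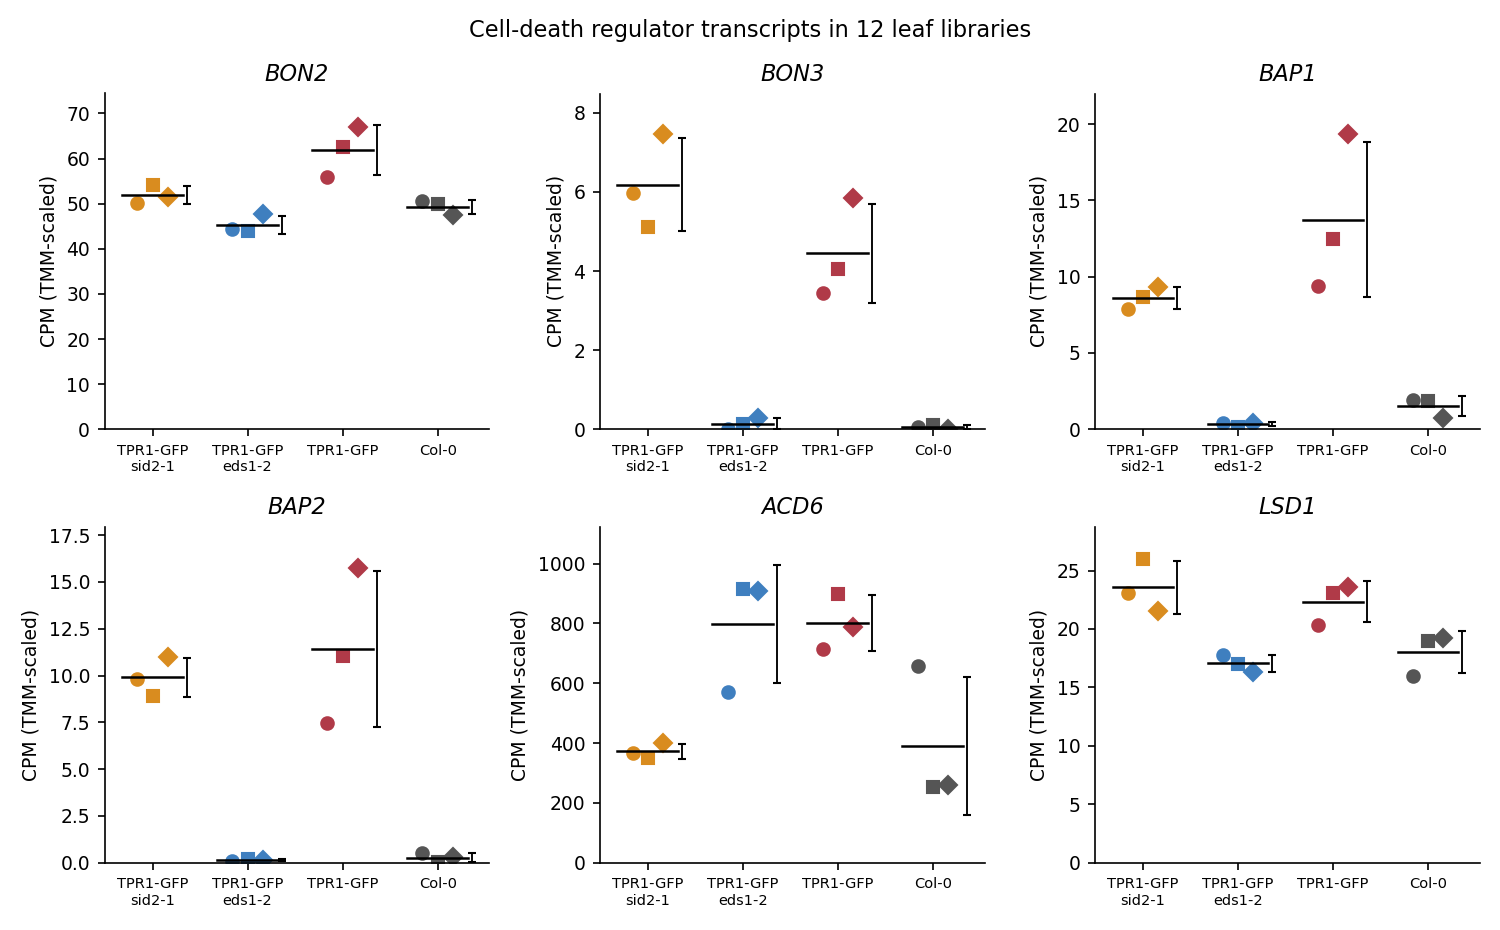
Level of each of the 6 measured regulators in CPM after TMM scaling, in the 3 libraries of TPR1-GFP sid2-1, TPR1-GFP eds1-2, TPR1-GFP and Col-0. Symbols are libraries (circle, square and diamond for replicates 1, 2 and 3), horizontal lines are means and bars are 1 SD, cut at 0. *BON3*, *BAP1* and *BAP2* are high in TPR1-GFP and the sid2-1 line and near 0 in the eds1-2 line, whereas *ACD6* is high in TPR1-GFP and the eds1-2 line. For *ACD6*, Col-0 replicate 1 (658 CPM) lies above eds1-2 replicate 1 (572 CPM).

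Among the copines, *BON3* (AT1G08860, chromosome 1, 2841969 to 2846350, plus strand) was close to silent outside TPR1-GFP and the sid2-1 line. Counts of *BON3* were 119, 124 and 221 in TPR1-GFP sid2-1, 0, 3 and 6 in TPR1-GFP eds1-2, 96, 141 and 147 in TPR1-GFP, and 1, 2 and 0 in Col-0. As scaled levels in CPM, the sid2-1 line had 5.98, 5.12 and 7.46, the eds1-2 line at most 0.286, TPR1-GFP 3.45, 4.04 and 5.85, and Col-0 at most 0.0994. TPR1-GFP and the sid2-1 line overlapped each other and lay above every library of the eds1-2 line and Col-0.

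With 3 counts in all of Col-0, the size of the *BON3* rise is loosely bounded. The summed counts gave a scaled ratio of 94.5 for TPR1-GFP over Col-0 (95% interval 32.1 to 460, counting error only), and the edgeR test had an adjusted p of 1.55e-05. For the sid2-1 line over Col-0 the ratio was 136 (46.3 to 662; edgeR adjusted p = 1.56e-05). In the eds1-2 line *BON3* fell by 4.93 on the log2 scale relative to TPR1-GFP (SE 0.52, edgeR adjusted p = 2.48e-05). The eds1-2 line over Col-0 had a ratio of 3.03 with an interval of 0.756 to 17.4, and its test was not passed (edgeR adjusted p = 0.355). A library at 0 allows up to 3 counts, which is 0.144 CPM in the eds1-2 library.

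*BON2* (AT5G07300, chromosome 5, 2299725 to 2303268, plus strand), the copine closest to *BON1* in these sequences, was expressed in every library. Its coding sequence was identical to that of *BON1* at 81.9% of aligned bases and to that of *BON3* at 65.5%. The level of *BON2* in CPM was 50.2, 54.1 and 51.4 for the sid2-1 line, 44.4, 43.9 and 47.6 for the eds1-2 line, 55.9, 62.6 and 67.1 for TPR1-GFP, and 50.5, 49.9 and 47.6 for Col-0. Every TPR1-GFP library was above the 9 others.

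The rise of *BON2* in TPR1-GFP over Col-0 was 0.33 on the log2 scale (SE 0.08, edgeR adjusted p = 0.00576). It fell by 0.45 in the eds1-2 line relative to TPR1-GFP (SE 0.08, edgeR adjusted p = 0.000844). The sid2-1 line did not pass the test against TPR1-GFP (-0.25, 95% interval -0.43 to -0.07, edgeR adjusted p = 0.055). That value lay near the threshold: DESeq2 gave an adjusted p of 0.0231, and the authors' deposited table gives 0.0497.

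*BAP1* (AT3G61190, chromosome 3, 22650159 to 22651636, minus strand) was expressed at 7.89, 8.67 and 9.32 (CPM) by the sid2-1 line and at 0.433, 0.178 and 0.429 by the eds1-2 line. Its levels were 9.42, 12.4 and 19.3 CPM for TPR1-GFP and 1.95, 1.84 and 0.768 CPM for Col-0. The eds1-2 libraries were the lowest of all, below each Col-0 library. The highest value, in TPR1-GFP replicate 3, was 2.06 times the lowest of that genotype.

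In TPR1-GFP *BAP1* rose by 3.20 on the log2 scale over Col-0 (SE 0.34, edgeR adjusted p = 2.74e-05), a larger change than all but 2.82% of genes. It fell by 5.30 in the eds1-2 line relative to TPR1-GFP (SE 0.42, edgeR adjusted p = 4.6e-06). *BAP1* also fell by 2.10 in the eds1-2 line relative to Col-0 (SE 0.49, edgeR adjusted p = 0.0132), the only regulator to do so. That call was lost with limma voom (adjusted p = 0.118) and without eds1-2 replicate 2 (edgeR adjusted p = 0.0594). *BAP1* lies on the same chromosome as *EDS1A*, 4892012 bases away, and whether sequence around the eds1-2 allele bears on it was not tested.

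*BAP2* (AT2G45760, chromosome 2, 18846944 to 18847835, minus strand) is a single-exon gene whose coding sequence matched that of *BAP1* at 69.6% of aligned bases. *BAP2* levels in CPM were 9.80, 8.92 and 10.98 for the sid2-1 line, 0.0963, 0.223 and 0.143 for the eds1-2 line, 7.47, 11.1 and 15.8 for TPR1-GFP, and 0.50004, 0.0497 and 0.283 for Col-0. The sid2-1 libraries lay inside the range of TPR1-GFP, and the eds1-2 libraries inside the range of Col-0.

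*BAP2* rose by 5.34 on the log2 scale in TPR1-GFP over Col-0 (SE 0.42, edgeR adjusted p = 5.96e-06), and its summed counts had a scaled ratio of 40.6 (95% counting interval 25.6 to 68.8). It fell by 6.15 relative to TPR1-GFP in the eds1-2 line (SE 0.46, edgeR adjusted p = 3.4e-06). Only 0.609% of genes had a larger change in that comparison. However, *BAP2* reaches the floor of 101 counts only through TPR1-GFP and the sid2-1 line, so this rank is partly built in. The eds1-2 line held 10 counts of *BAP2* in all and Col-0 18, and their difference was not detectable at this depth (-0.81, 95% interval -2.43 to 0.80, edgeR adjusted p = 0.479).

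*ACD6* (AT4G14400, chromosome 4, 8294165 to 8299195, plus strand) was the most abundant regulator and followed another order of genotypes. Its CPM were 367, 351 and 399 for the sid2-1 line, 572, 915 and 908 for the eds1-2 line, 715, 900 and 788 for TPR1-GFP, and 658, 253 and 261 for Col-0. TPR1-GFP and the eds1-2 line overlapped at the high end. Col-0 was split, with replicate 1 above all sid2-1 libraries and the other two below them.

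*ACD6* rose by 1.04 on the log2 scale in TPR1-GFP over Col-0 (SE 0.32, edgeR adjusted p = 0.0184). Without Col-0 replicate 1 the change was 1.64 (edgeR adjusted p = 6.04e-05), and the call was lost without Col-0 replicate 2 (0.80, edgeR adjusted p = 0.0625), Col-0 replicate 3 (0.82, edgeR adjusted p = 0.0707) or TPR1-GFP replicate 2 (0.94, edgeR adjusted p = 0.0579). It was also lost in a fit of these genotypes alone (1.02, edgeR adjusted p = 0.0518). The same Col-0 library was also the highest of its genotype for *ICS1* (49.9 CPM, against 26.6 and 10.3 CPM) and *EDS1A* (60.8 CPM, against 31.95 and 29.6 CPM). The part of that library's state in the *ACD6* values was not tested.

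In the sid2-1 line *ACD6* fell by 1.10 on the log2 scale relative to TPR1-GFP (SE 0.32, edgeR adjusted p = 0.0391). The call was close to the threshold. It was lost with the replicate number as a block (edgeR adjusted p = 0.067) and in 6 of 12 fits that left out 1 library, where the change ran from -1.18 to -1.01. Those 6 were without TPR1-GFP replicate 2 or 3, any 1 sid2-1 replicate or eds1-2 replicate 3. In the eds1-2 line the difference from TPR1-GFP was -0.0047 with a 95% interval of -0.71 to 0.70 (edgeR adjusted p = 0.991), an interval that still holds changes of up to 0.70 in either direction.

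The double lines were also compared directly, and *ACD6* fell by 1.10 in the sid2-1 line relative to the eds1-2 line (log2 scale, SE 0.32, edgeR adjusted p = 0.0223). That call was lost without sid2-1 replicate 1 or 2 or eds1-2 replicate 2 or 3, with edgeR adjusted p-values of 0.0573 to 0.0711. All 6 measured regulators separated these lines without overlap, where 49.7% of all genes did. *BON3* (5.42), *BAP1* (4.63), *BAP2* (5.95) and *LSD1* (0.47) were higher in the sid2-1 line, with edgeR adjusted p-values of 0.00507 or less. *BON2* was not called (0.20, edgeR adjusted p = 0.0863). Thus 4 were called higher and 1 lower, where 34.4% of all genes were called, 19.5% higher and 14.9% lower.

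*LSD1* (AT4G20380, chromosome 4, 11004503 to 11006968, plus strand) varied little. *LSD1* measured 23.1, 26.01 and 21.5 CPM for the sid2-1 line, 17.8, 17.01 and 16.4 for the eds1-2 line, 20.3, 23.1 and 23.6 for TPR1-GFP, and 16.001, 18.9 and 19.2 for Col-0. TPR1-GFP and the sid2-1 line overlapped, and so did the eds1-2 line and Col-0, with no overlap between these pairs. An exon of *LSD1* overlaps one of AT4G20390 on the same strand, where reads cannot be assigned to 1 gene.

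*LSD1* rose by 0.31 on the log2 scale in TPR1-GFP over Col-0 (SE 0.10, edgeR adjusted p = 0.0255). That call was lost with upper-quartile scaling (0.23, adjusted p = 0.0743), in a fit of those genotypes alone (0.29, adjusted p = 0.0626), and without Col-0 replicate 1, TPR1-GFP replicate 2 or TPR1-GFP replicate 3 (edgeR adjusted p of 0.0808 to 0.0991). It fell by 0.39 relative to TPR1-GFP in the eds1-2 line (SE 0.10, edgeR adjusted p = 0.00785). The sid2-1 line was 0.38 above Col-0 (SE 0.10, edgeR adjusted p = 0.0121), a call lost without sid2-1 replicate 2 (edgeR adjusted p = 0.0551).

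Across the 6 regulators, the eds1-2 line was lower than TPR1-GFP for 5, with no overlap for the same 5. Among all genes 52.9% were called there, 25.2% higher and 27.7% lower, and 60.4% had no overlap. Between the sid2-1 line and TPR1-GFP *ACD6* alone was called, where 16.8% of all genes were called, 9.7% higher and 7.14% lower. *BON2*, *BAP1* and *ACD6* had no overlap in that comparison, against 39.9% of genes. *BAP1* was not called (-0.67, 95% interval -1.30 to -0.03, edgeR adjusted p = 0.132), nor were *BON3* (0.48, -0.26 to 1.22, 0.341), *BAP2* (-0.20, -0.83 to 0.42, 0.649) and *LSD1* (0.08, -0.15 to 0.30, 0.631).

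Relative to Col-0, the sid2-1 line was higher for *BON3*, *BAP1* (2.53, SE 0.34), *BAP2* (5.13, SE 0.43) and *LSD1*, so 4 of 6, where 42.1% of all genes were called, 22.1% higher and 19.9% lower. Libraries did not overlap for those 4, as for 53.8% of genes. The eds1-2 line was lower than Col-0 for *BAP1* and higher for *ACD6* (1.03, SE 0.32, edgeR adjusted p = 0.0485), where 17.5% of all genes were called, 9.48% higher and 8.02% lower. Its libraries overlapped those of Col-0 for *ACD6*, and only *BAP1* had none, against 34.8% of genes. The *ACD6* call was lost in 10 of 12 fits without 1 library (edgeR adjusted p up to 0.143), all but those without Col-0 replicate 1 or eds1-2 replicate 1, with the replicate number as a block (edgeR adjusted p = 0.0796) and in a fit of these genotypes alone (edgeR adjusted p = 0.142). These comparisons share their Col-0 or TPR1-GFP libraries.

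**Figure D2:**
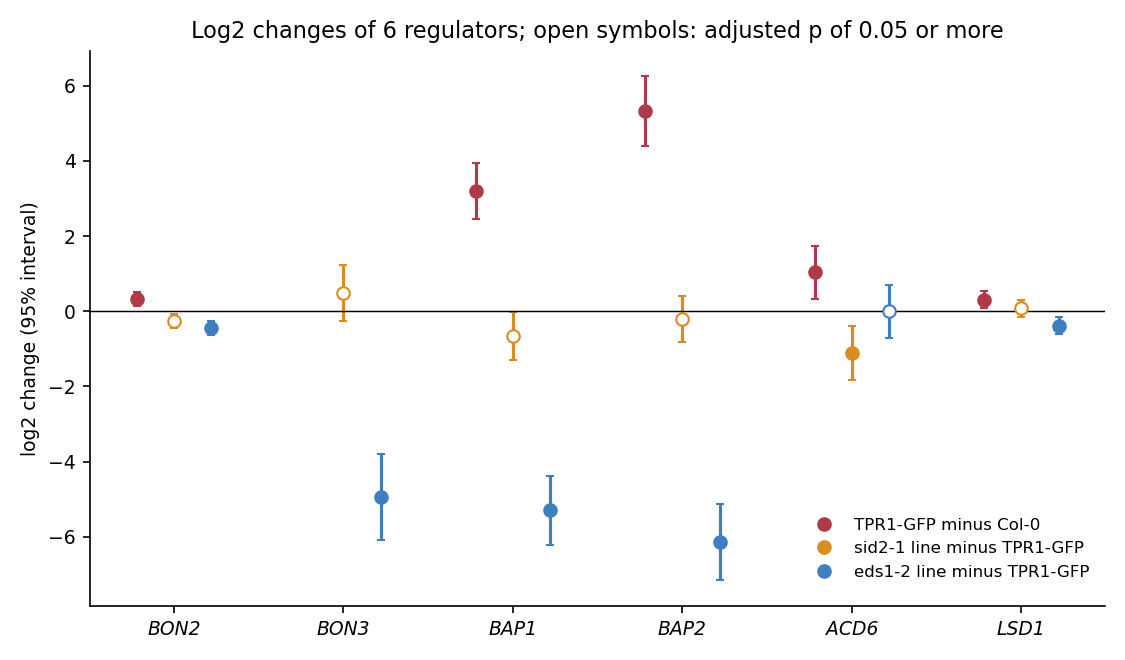
Log2 change of each regulator with its 95% interval, for TPR1-GFP minus Col-0 (red), the sid2-1 line minus TPR1-GFP (orange) and the eds1-2 line minus TPR1-GFP (blue). Filled symbols passed an adjusted p of 0.05, and *BON3* in TPR1-GFP minus Col-0 is not drawn because Col-0 held 3 counts. *BAP2* lies at 5.34, -0.20 and -6.15, and *ACD6* at 1.04, -1.10 and -0.0047.

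Levels of different genes were compared per kilobase of exon. In TPR1-GFP *ACD6* had 248 ± 28.8 CPM per kb (SD, n = 3), *BON2* 27.4 ± 2.49, *LSD1* 13.4 ± 1.06, *BAP2* 12.8 ± 4.66, *BAP1* 9.81 ± 3.64 and *BON3* 2.07 ± 0.582. The means of *LSD1* and *BAP1* lay within 1 SD of *BAP2* (4.66) from the mean of *BAP2*. In Col-0 the order was *ACD6* (121 ± 71.6), *BON2* (21.8 ± 0.687), *LSD1* (10.8 ± 1.07), *BAP1* (1.09 ± 0.466), *BAP2* (0.311 ± 0.253) and *BON3* (0.0232 ± 0.0231), all in CPM per kb.

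*ACD6* has a neighbour of the same family, AT4G14390 (chromosome 4, 8289610 to 8292203, plus strand), whose coding sequence matched at 85.1% of aligned bases. The pair shared 66 runs of 32 bases, 2.15% of those in *ACD6* exons, while the other regulators shared none with another place in the genome. The longest shared stretch had 54 bases, at chr4:8297216-8297269 in *ACD6* and chr4:8290955-8291008 in AT4G14390, both on the plus strand and coding. It is shown because a read inside it fits either gene, and no letter is marked.
ACD6 and AT4G14390: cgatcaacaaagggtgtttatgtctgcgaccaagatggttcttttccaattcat

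AT4G14390 had 15, 24 and 28 counts in the sid2-1 line, 34, 50 and 27 in the eds1-2 line, 170, 330 and 272 in TPR1-GFP, and 28, 3 and 0 in Col-0. The TPR1-GFP libraries were above all others, and Col-0 replicate 1 was again the highest of its genotype. AT4G14390 rose by 4.15 on the log2 scale in TPR1-GFP over Col-0 (SE 0.70, edgeR adjusted p = 0.000527). It fell by 3.28 in the sid2-1 line (SE 0.64, edgeR adjusted p = 0.0075) and by 2.35 in the eds1-2 line (SE 0.60, edgeR adjusted p = 0.00652), both relative to TPR1-GFP. It thus stood below TPR1-GFP in the eds1-2 line, where *ACD6* held 51482 counts. The mean of AT4G14390 in the eds1-2 line, 1.72 CPM, was above those of the sid2-1 line (0.897 CPM) and Col-0 (0.516 CPM). Between the sid2-1 and eds1-2 lines AT4G14390 was not called (-0.93, edgeR adjusted p = 0.309).

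**Figure D3:**
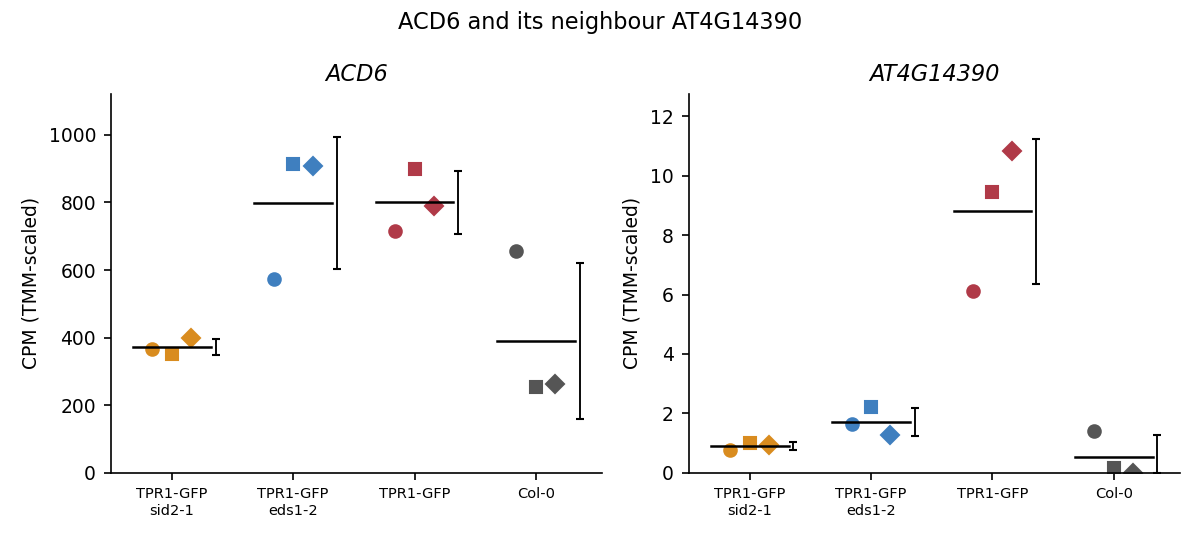
Levels of *ACD6* and of its neighbour AT4G14390 in CPM after TMM scaling, in the 3 libraries of TPR1-GFP sid2-1, TPR1-GFP eds1-2, TPR1-GFP and Col-0, with means (lines) and 1 SD (bars, cut at 0). The eds1-2 libraries reach 572 to 915 CPM for *ACD6* and 1.29 to 2.23 CPM for AT4G14390.

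Genes of 4 related lists were counted beside the regulators. Their counts stand against shares of all genes called of 53.9% in TPR1-GFP over Col-0 (27.5% higher), 52.9% in the eds1-2 line relative to TPR1-GFP (27.7% lower) and 16.8% in the sid2-1 line relative to TPR1-GFP (7.14% lower). Of 7 copine partners and immune outputs, 6 rose and 1 fell in TPR1-GFP over Col-0, with a median log2 change of 0.95, against 0.01 over all genes. The receptor kinase gene *SOBIR1* rose most (667 ± 125 CPM in TPR1-GFP, 141 ± 60.3 CPM in Col-0, SD, n = 3 each), by 2.24 on the log2 scale (SE 0.25, edgeR adjusted p = 3.83e-05). *ACA8*, which encodes a calcium pump of the plasma membrane, fell by 1.04 (SE 0.11, edgeR adjusted p = 1.96e-05). In the eds1-2 line relative to TPR1-GFP, 6 of the 7 fell and *ACA8* rose by 0.56. In the sid2-1 line relative to TPR1-GFP *SOBIR1* fell by 0.78 (edgeR adjusted p = 0.0478), *ACA8* rose by 0.65, and 5 were not called.

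Of 13 LSD1 partners and redox enzymes, 9 rose, 2 fell and 2 were not called in TPR1-GFP over Col-0 (median 0.45). The metacaspase gene *MC2* rose by 2.42 (25.1 ± 5.68 CPM in TPR1-GFP, 4.79 ± 4.04 CPM in Col-0, SD, n = 3 each, edgeR adjusted p = 0.00625). *CSD2*, the chloroplast copper/zinc superoxide dismutase gene, fell by 1.84 (193 ± 38.6 CPM in TPR1-GFP, 690 ± 359 CPM in Col-0, SD, n = 3 each, edgeR adjusted p = 0.00611). Relative to TPR1-GFP, 8 fell and 5 were not called in the eds1-2 line, while 2 fell and 11 were not called in the sid2-1 line. Of all genes, 52.9% and 16.8% were called in these comparisons in either direction, and 27.7% and 7.14% were called lower. The calls of 8 of 13 and 2 of 13 were all falls, and they stand against the shares called lower.

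Of 12 *ACD6* relatives and partners, 8 were tested, of which 7 rose and 1 fell in TPR1-GFP over Col-0 (median 1.82). AT4G14390 rose most, and the flagellin receptor gene *FLS2* fell by 0.60 (SE 0.13, edgeR adjusted p = 0.00238). Against TPR1-GFP, the eds1-2 line had 1 that rose, 4 that fell and 3 not called, and in the sid2-1 line 2 fell and 6 were not called. Of all genes, 52.9% and 16.8% were called in these comparisons in either direction, and 27.7% and 7.14% were called lower. The falls, 4 and 2 among 8, stand against the shares called lower.

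Of 14 other genes whose loss gives spontaneous or accelerated cell death, 9 rose, 3 fell and 2 were not called in TPR1-GFP over Col-0 (median 0.50). *BI-1*, an inhibitor of cell death in the endoplasmic reticulum, rose by 1.44 (SE 0.18, edgeR adjusted p = 7.31e-05). *MIPS1*, a gene of inositol synthesis, fell by 0.77 (SE 0.10, edgeR adjusted p = 8.11e-05). In the eds1-2 line relative to TPR1-GFP 3 rose, 8 fell and 3 were not called, and in the sid2-1 line 1 fell (*MIPS1*, by 0.44) and 13 were not called. All genes were called at 52.9% and 16.8% there in either direction, and 27.7% and 7.14% were called lower. The 1 call of 14 in the sid2-1 line is below the 16.8% but not below the 7.14%. Relative to TPR1-GFP, the median log2 changes of the 4 lists in the order given were -0.14, -0.12, -0.54 and -0.14 in the sid2-1 line (0.0015 over all genes) and -0.71, -0.41, -0.71 and -0.39 in the eds1-2 line (-0.03 over all genes).

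**Figure D4:**
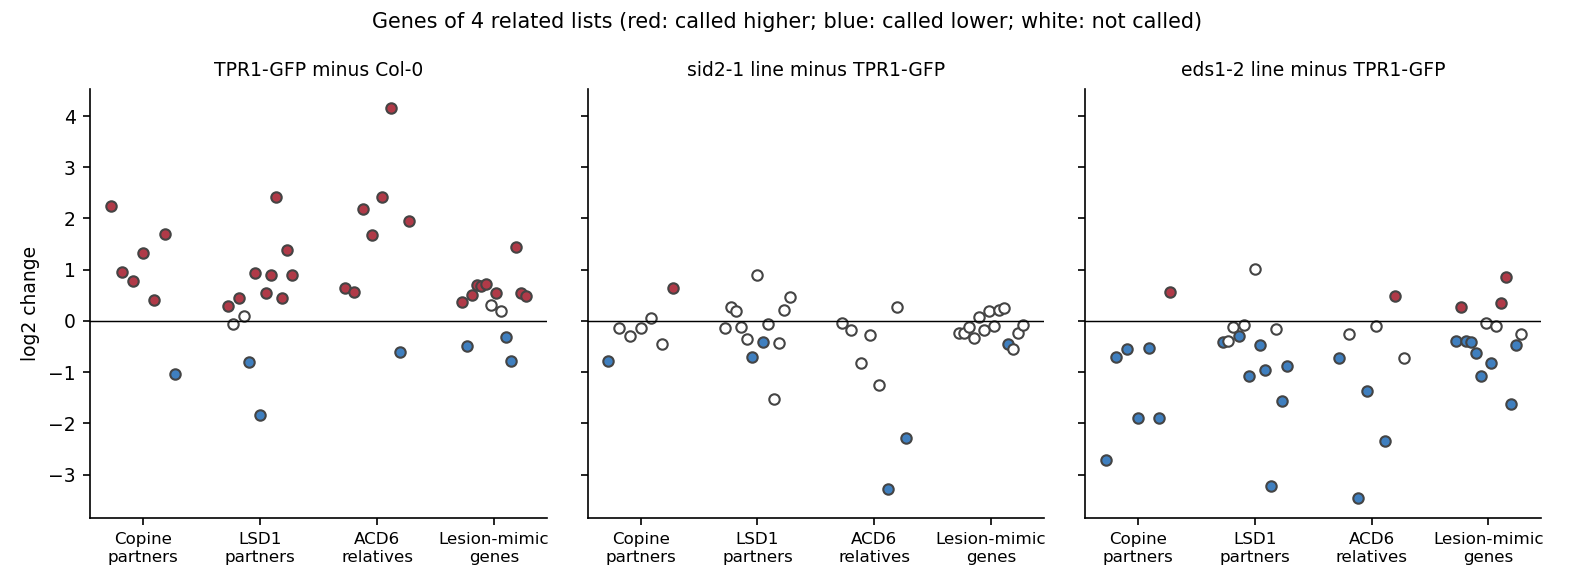
Log2 change of each tested gene of the 4 related lists (7, 13, 8 and 14 genes) in TPR1-GFP minus Col-0, the sid2-1 line minus TPR1-GFP and the eds1-2 line minus TPR1-GFP. Red points were called higher, blue points lower and white points were not called. Most points lie above 0 in the left panel and below 0 in the right one, and few are coloured in the middle panel.

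The genes most like each regulator over the 12 libraries were taken by Pearson's r of log2 CPM, as a description; the libraries share their genotype groups and scaling. *ACD6* had the fewest close matches, 25 genes above 0.9, led by *SVL2* (r = 0.97) and the cyclic nucleotide-gated channel gene *ATCNGC11* (r = 0.96). *SVL2* averaged 430 ± 7.02 CPM in the sid2-1 line, 589 ± 68.9 CPM in the eds1-2 line, 636 ± 42.5 CPM in TPR1-GFP and 374 ± 95.6 CPM in Col-0 (SD, n = 3 each). *BAP2* had 1094 genes above 0.9, led by AT2G40095 and AT1G36622 (both r = 0.99). *BON3* was most like AT5G41730, annotated as a protein kinase, and AT4G10860 (both r = 0.99), and *BAP1* most like AT2G32030 and AT1G15670 (both r = 0.99). AT5G41730 and AT4G10860 averaged at most 0.0627 CPM in the eds1-2 line and in Col-0. *BON3* and *BAP2* reach the floor of 101 counts only through TPR1-GFP and the sid2-1 line, so their likeness to genes of that pattern is partly built in.

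*BON2* was most like *GAMMA-ADAPTIN 1*, a vesicle coat subunit gene, and AT1G61790 (both r = 0.97). *LSD1* was most like the S-domain kinase gene *SD2-5* (r = 0.96) and the cell-wall enzyme gene *XTH29* (r = 0.95). *SD2-5* averaged 34.8 ± 3.81 CPM in the sid2-1 line, 21.1 ± 0.420 CPM in the eds1-2 line, 35.3 ± 1.83 CPM in TPR1-GFP and 25.4 ± 3.30 CPM in Col-0 (SD, n = 3 each).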

How the data were processed

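Polyadenylated leaf RNA gave 12 libraries, 3 for each of 4 genotypes. TopHat2, HTSeq and limma, with the TAIR10 build, were used per the submitters' processing notes; versions, roles and strand are not given in the sources used here. The authors deposited 1 table with the raw read count of each gene in each library, unpooled, in which no gene sums to less than 101. Per the file headers it also holds the authors' ratio (fold) and log2 ratio of genotypes for 3 comparisons, with the authors' p-values as false discovery rates. The deposited log2 CPM values equal those of the counts plus a constant per library. Libraries held 19628974 to 32018583 counts, and no replicate was a copy of another.

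edgeR 4.0.16 in R 4.3.3 was run on the counts: filterByExpr, TMM scaling, and a robust quasi-likelihood model of genotype over all 12 libraries. Benjamini-Hochberg adjustment covered the 18877 genes tested, and an adjusted p under 0.05 made a call. Each SE is the size of the log2 change over the square root of its F statistic, and 95% intervals use the model's degrees of freedom. Ratios of summed counts carry exact intervals for counting error only, with a floor of 3 counts. Likeness was computed on log2 CPM with a prior count of 2. The steps were tested on simulated data. Alternatives were DESeq2 1.42.0, limma 3.58.1 (voom), library totals or upper quartiles as scaling, no filter, the 2 groups alone, a replicate block, the authors' columns, and each library left out in turn.

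The labels number replicates 1 to 3 in each genotype and do not say what a number shares. Of 18 same-numbered pairs, 8 correlated above 0.1 in their deviations from the group means (range -0.333 to 0.356), with all 3 above it only for the sid2-1 line with Col-0 (0.172, 0.22 and 0.309); this pairing comes from the data and not from the labels. Members and lists were chosen with earlier results of these data known. Genes named are all members, the 2 most like each, the largest called rise and fall of each list in TPR1-GFP against Col-0, and *TPR1*, *EDS1A* and *ICS1*; the marker *AG* and the genes beside *ACD6* were named after their values were seen. Loci, exons and windows came from RefSeq TAIR10.1 (biopython 1.88), where 18777 of the 18884 codes were found. Not every regulator's promoter window is reported here.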

Additional observations from a re-analysis of the deposited data

How the results depend on the processing

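Of the alternative values for the 6 regulators, 645 kept direction and side of the threshold, 35 lost a call, 6 gained one and 14 changed sign. The calls of *BON3*, *BAP1* and *BAP2* in TPR1-GFP against Col-0 and in the eds1-2 line against TPR1-GFP were kept in every alternative run. For *BON3* and *BAP2* this is partly built in. Both reach the floor of 101 counts only through TPR1-GFP and the sid2-1 line, and every alternative run started from genes above that floor. Depth limits *BON3* and *BAP2* in the eds1-2 line and Col-0, with 3 to 18 counts a genotype. A fit of the eds1-2 line and Col-0 alone filtered out both genes and gave no value for them. 3 libraries a genotype limit *ACD6*, *LSD1* and *BON2*. Weaker calls of *ACD6* and *LSD1* were lost without single libraries. The calls of *BON2* were kept in all 12 such fits, and its sid2-1 result against TPR1-GFP gained a call in 1.

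For the sid2-1 line against TPR1-GFP, 1 of 6 regulators was called. It was 2 with DESeq2, with library totals and in the authors' deposited table, 0 with the replicate block, and 0 to 2 with 1 library left out, where all called genes ranged from 1172 to 3643 (3179 with all libraries). For the eds1-2 line against Col-0, 2 were called. It was 1 with the replicate block, with the 2 groups alone and with limma voom, and 0 to 2 with 1 library left out. Called genes there were 3303, 1804 with the 2 groups alone and 2103 to 3396 with 1 library left out. The block moved the count of called genes by less than 1.5 times in every comparison and changed no other regulator's call; 3 pairs all correlated above 0.1 only for the sid2-1 line with Col-0. The cause of these changes was not tested.

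Sign changes were those of results with a small log2 value in the main fit, though an alternative value could be larger. *ACD6* in the eds1-2 line against TPR1-GFP was -0.0047, and 0.021 with DESeq2, 0.12 with upper quartiles, 0.0042 with the replicate block, 0.036 with the 2 groups alone and -0.11 to 0.19 with 1 library left out. *ACD6* in the sid2-1 line against Col-0 was -0.07, and 0.10 with library totals, 0.080 with limma voom and -0.30 to 0.54 with 1 library left out. The highest, without Col-0 replicate 1, passed the test (edgeR adjusted p = 0.0411). *LSD1* in the sid2-1 line against TPR1-GFP was -0.0020 with library totals and -0.00056 to 0.14 with 1 library left out. In the eds1-2 line against Col-0 it was 0.0071 with library totals. *BAP2* in the sid2-1 line against TPR1-GFP ran from -0.43 to 0.093 with 1 library left out.

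Scaling moved the split of calls. The share of called genes that were higher was 57.6% in the sid2-1 line against TPR1-GFP (38.1% with library totals, 62.9% with upper quartiles). It was 47.6% in the eds1-2 line against TPR1-GFP (32.6% and 59.7%), and 56.7% in the sid2-1 line against the eds1-2 line (70% and 43.2%). Against Col-0 it was 52.6% in the sid2-1 line (76.5% and 47.2%) and 54.2% in the eds1-2 line (70.8% and 63.8%).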

Other observations

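Genes beside *ACD6* on chromosome 4 were looked at after the values were seen, 4 on each side in the table. *XBAT34* and AT4G14370, both upstream, rose in TPR1-GFP over Col-0 by 2.42 and 2.68 on the log2 scale (edgeR adjusted p = 0.000254 and 5.51e-05). In the eds1-2 line they fell by 3.77 and 4.85 relative to TPR1-GFP (edgeR adjusted p = 2.5e-05 and 5.31e-06), where *ACD6* was not called. In the sid2-1 line their differences from TPR1-GFP were -0.15 and -0.05 (edgeR adjusted p = 0.788 and 0.916), where *ACD6* fell. AT4G14385, also upstream, was lower in TPR1-GFP than in Col-0 (-0.27, edgeR adjusted p = 0.0416) and 0.29 higher in the eds1-2 line than in TPR1-GFP (edgeR adjusted p = 0.0316). Downstream of *ACD6*, *bHLH104*, AT4G14420 and *IBR10* were higher in TPR1-GFP than in Col-0 by 0.39, 0.76 and 0.64 (edgeR adjusted p = 0.0148, 0.000146 and 0.000476), and *ATECI3* was lower (-0.74, edgeR adjusted p = 0.033). Relative to TPR1-GFP, AT4G14420 fell by 1.05 in the eds1-2 line (edgeR adjusted p = 1.97e-05) and by 0.42 in the sid2-1 line (edgeR adjusted p = 0.0217), and *IBR10* fell by 0.47 in the eds1-2 line (edgeR adjusted p = 0.00357). *bHLH104* and *ATECI3* were not called in the eds1-2 line (-0.20 and -0.16, edgeR adjusted p = 0.174 and 0.638), and *bHLH104*, *IBR10* and *ATECI3* were not called in the sid2-1 line.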
